A study of Mus musculus with 18 samples.

Results

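At 16 weeks the exorbital lacrimal glands (LGs) of male NOR/LtJ and male BALB/cJ mice differed by many lymphocyte, interferon and antigen presentation genes. Among 17 acinar regulators and products, 1 was upregulated and 3 were downregulated in NOR, against 14.1 and 5.22% of all genes tested. The comparison holds the 6 libraries of 16 weeks, 3 of NOR and 3 of BALB/c, out of the 18 of the series, chosen by strain and age. Per the paper, the libraries of 16 and 8 weeks were made from pools of mice. It states pooling for these ages only. The sample titles write NOD, whereas the genotype label and the paper give NOR/LtJ, and the glands are called NOR here.

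NOR males develop an autoimmune inflammation of the LG, in which T and B lymphocytes gather around ducts and vessels and can form organized lymphoid aggregates. The acinar cells that make up most of the gland secrete proteins, water and ions into the tear film under the control of parasympathetic and sympathetic nerves. Interferons released in inflamed tissue induce the machinery that processes and displays antigen.

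The libraries held 13638923, 17719984 and 7322307 counted reads in NOR 1, 2 and 3 and 20493076, 12692650 and 19023500 in BALB/c 1, 2 and 3. The depth of NOR 3 was the lowest, and a gene at 3 counts there stood at 0.319 CPM (counts scaled to the library size), against 0.142 CPM in BALB/c 1. The 20 most abundant genes took 66.0, 56.9 and 61.2% of the reads in NOR and 65.7, 64.9 and 64.6% in BALB/c. NOR 2 stood apart from the other libraries by this low share and by its scaling factor of 1.44, against 1.06 in NOR 1 and 1.29 in NOR 3. NOR 1 and NOR 2 differed at least 2-fold at 1041 genes, compared with 320 between NOR 2 and NOR 3 and 411 to 584 between BALB/c libraries. Markers of other tissues also separated single libraries: the 7 parotid gland genes summed to 34.6, 4791 and 5.10 CPM in NOR and 11.1, 7334 and 372 CPM in BALB/c, so that replicate 2 of both strains carried them.

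The strain labels could be checked on H2-Ea-ps (chromosome 17, 34342212 to 34344645), the gene of the MHC class II Eα chain. It measured 22.9, 24.1 and 39.4 CPM in BALB/c 1, 2 and 3 and 0.138, 0.157 and 0.319 CPM in NOR 1, 2 and 3. Every BALB/c library lay far above every NOR library, and the tear protein gene Pip was abundant in all 6. This separates BALB/c from NOR labels only. Whether the libraries titled NOD are of NOR or NOD mice was not tested.

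Of the 13376 genes tested with edgeR, 2589 (19.4%) were differentially expressed genes (DEGs), meaning an adjusted p of at most 0.05 and at least a 2-fold difference. Upregulated in NOR were 1891 (14.1%), and downregulated were 698 (5.22%). This balance depends on the fold-change threshold, without which 3416 genes were higher and 3395 lower at the same adjusted p. The difference reached 8-fold, an absolute log2 fold change (log2FC, NOR over BALB/c) of 3, for 539 upregulated and 87 downregulated genes. The groups did not overlap at 57.3% of all genes tested, and at 1855 of the 1891 and 689 of the 698, which were selected for their difference. An unadjusted p under 0.05, given below for several gene lists, was reached by 28.0% of all genes as higher and 28.6% as lower ones. NOR 2 was the highest NOR library at 1560 of the upregulated genes and NOR 1 the lowest at 1541. Among chromosomes, the largest shares of DEGs were on chromosomes 6 (25.2%), 19 (23.9%) and 17 (23.4%). An exact two-sided permutation of 3 against 3 libraries cannot give a p under 0.1, so the adjusted p values rest on edgeR's model across genes.

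**Figure D1:**
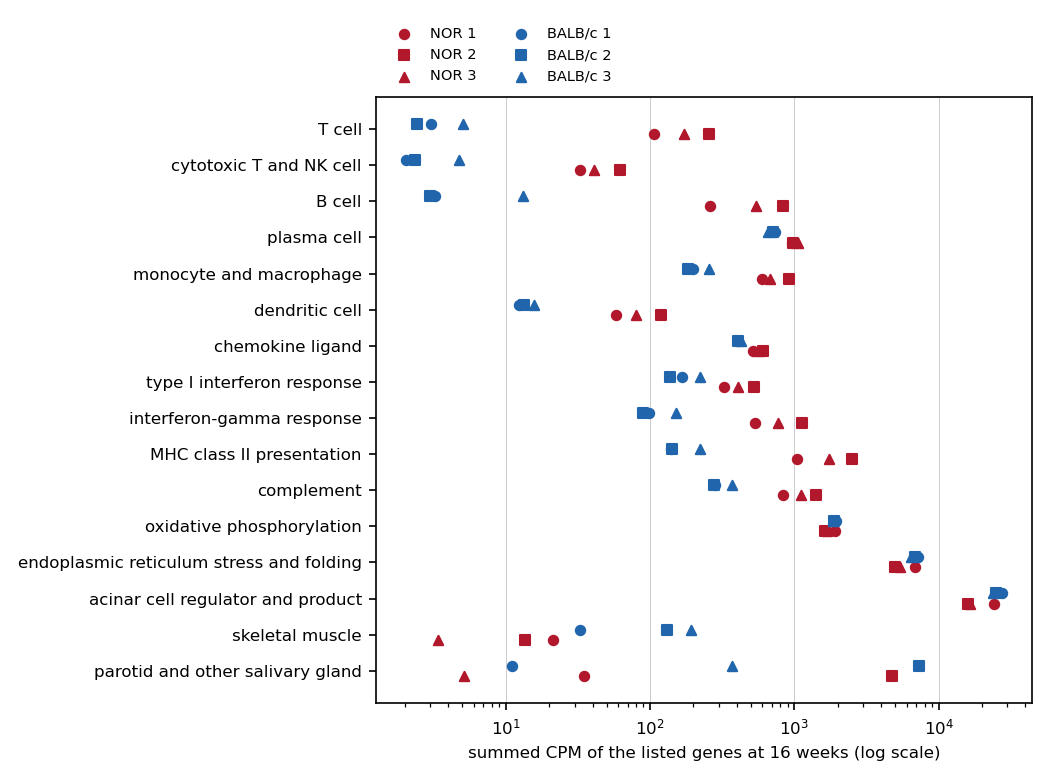
Summed CPM of the genes of 16 lists, on a logarithmic horizontal axis, in each of the 6 LG libraries of 16 weeks; NOR in red, BALB/c in blue, with circles, squares and triangles for replicates 1, 2 and 3. The T cell list spans 107 to 254 CPM for NOR and 2.44 to 5.04 CPM for BALB/c, whereas the oxidative phosphorylation list spans 1622 to 1930 CPM over all 6. The bottom lines show skeletal muscle and parotid genes, which differ between libraries of the same strain.

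T lymphocyte genes formed one of the clearest differences. All 16 T cell genes tested were upregulated, with a median log2FC of 6.06 against a median of -0.01 for all genes, and of 5.03 with the 6 genes at 3 or fewer counts per BALB/c library set to that floor. Summed over the list, the level was 107, 254 and 172 CPM in NOR and 3.04, 2.44 and 5.04 CPM in BALB/c. No library of 1 strain came near the other strain, and the order within NOR was the same for every gene, with NOR 2 highest and NOR 1 lowest. Bulk RNA cannot tell a larger number of cells from more RNA per cell.

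Cd4 (chromosome 6, 124864693 to 124888209), the coreceptor of helper T cells, measured 17.6, 46.2 and 33.6 CPM in NOR and 0.523, 0.609 and 0.673 CPM in BALB/c. Even the lowest NOR library was above all BALB/c libraries (log2FC 5.75, SE 0.33, adjusted p = 1.96e-10). Cd3g, a chain of the CD3 complex and the most abundant gene of the list per kilobase, measured 9.94, 25.2 and 14.5 CPM in NOR and 0.238, 0.152 and 0.336 CPM in BALB/c. The separation was again complete (log2FC 6.0, SE 0.46, adjusted p = 9.25e-09). Cd8a, the coreceptor of cytotoxic T cells, measured 4.42, 7.73 and 7.12 CPM in NOR and had 1, 0 and 2 counts in BALB/c. Its pooled level was 122-fold higher in NOR, with a 95% counting interval from 41.3 to 593. Such an interval covers counting error only and leaves out the spread between libraries. In addition, reads were not deduplicated by molecule. Lck, the kinase that starts T cell receptor signaling, and Il7r, the receptor for the survival factor interleukin-7, had log2FC of 6.11 (SE 0.55) and 3.43 (SE 0.33), the latter the smallest of the list.

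Genes that define T cell subsets divided. Upregulated were 7 of 10 tested, downregulated none, and the median log2FC was 2.71, or 2.57 with floored genes. The median became 4.73 without NOR 1 and 4.22 without BALB/c 3, each with 10 genes upregulated. Without NOR 2 it was 2.64, with 6 genes upregulated. Foxp3, the transcription factor of regulatory T cells, measured 2.62, 7.22 and 5.85 CPM in NOR and had 1, 0 and 1 counts in BALB/c, a pooled ratio of 154 (counting interval 42.3 to 1280). Its NOR libraries followed the order of Cd4. Tbx21, which encodes the Th1 factor T-bet, measured 0.966, 2.98 and 2.23 CPM in NOR and had 3, 0 and 1 counts in BALB/c, a ratio of 30.9 (11.7 to 115). Gata3, the Th2 factor, was upregulated with a log2FC of 3.16 (SE 0.53) and Icos, a costimulator of follicular helper T cells, with 5.29 (SE 0.54). Il17a had no count in any of the 6 libraries. Il21, the cytokine of follicular helper T cells, was too sparse to be tested, at 0.207, 1.14 and 0.638 CPM in NOR and no count in BALB/c.

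Cytotoxic T and natural killer (NK) cell genes were upregulated throughout, 12 of 12 tested, with a median log2FC of 3.68 (3.57 with floored genes). The sum was 32.7, 61.8 and 40.6 CPM in NOR and 2.04, 2.36 and 4.71 CPM in BALB/c. Ccl5, a chemokine released by these cells and the most abundant of them per kilobase, measured 9.11, 16.0 and 11.1 CPM in NOR and 0.570, 0.609 and 0.721 CPM in BALB/c. Its groups were far apart (log2FC 4.24, SE 0.39, adjusted p = 6.51e-08). Nkg7, a protein of cytotoxic granules, followed with a log2FC of 5.02 (SE 0.57). Ncr1, the NK cell receptor NKp46, measured 2.49, 4.12 and 2.02 CPM in NOR and 0.190, 0.228 and 0.577 CPM in BALB/c, and here NOR 3 rather than NOR 1 was lowest (log2FC 3.09, SE 0.43, adjusted p = 8.38e-06).

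B lymphocyte genes had the largest median fold change of the 44 lists. All 16 tested were upregulated, with a median log2FC of 6.66 (6.59 with floored genes), which became 8.78 without BALB/c 3. Their sum was 261, 832 and 540 CPM in NOR and 3.23, 2.97 and 13.1 CPM in BALB/c. In NOR it exceeded the T cell sum in every library, and in BALB/c most of the counts came from replicate 3. Cd79b (chromosome 11, 106311341 to 106314529), a signaling chain of the B cell receptor and the most abundant gene of the list per kilobase, measured 26.7, 91.5 and 56.3 CPM in NOR and 0.190, 0.228 and 1.20 CPM in BALB/c. The groups stayed far apart despite the higher BALB/c 3 (log2FC 6.65, SE 0.50, adjusted p = 8.5e-09). Pax5, the factor that fixes B cell identity, had 1 count in the 3 BALB/c libraries together and 2.90, 8.98 and 7.02 CPM in NOR. The smallest difference was at Btk, a kinase that B cells share with myeloid cells (log2FC 3.73, SE 0.39).

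Markers of germinal centers, where B cells mutate their receptors, were sparse. Of 4 tested, S1pr2 (log2FC 1.20), Gcet2 (2.33) and Mybl1 (1.92) were upregulated. Without NOR 2, S1pr2 and Mybl1 were no DEGs and Gcet2 was too sparse to be tested. Of 9 plasma cell genes tested, 5 were upregulated (6 with DESeq2, 4 without NOR 2), with a median log2FC of 1.22. Igj (chromosome 5, 88519809 to 88527897), the joining chain of secreted IgA and IgM, measured 375, 498 and 489 CPM in NOR and 71.9, 31.7 and 57.0 CPM in BALB/c. Unlike most lymphocyte genes it was nearly as high in NOR 3 as in NOR 2, and it was well expressed in BALB/c (log2FC 3.08, SE 0.42, adjusted p = 7.98e-06). Pou2af1 and Irf4, factors of activated B cells and plasma cells, had log2FC of 3.88 (SE 0.43) and 3.59 (SE 0.35), and Tnfrsf17, the survival receptor BCMA, 3.46 (SE 0.69). Xbp1, Derl3 and Sdc1, which acinar or other epithelial cells express as well, were no DEGs at log2FC of -0.31, -0.61 and 0.03.

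Genes of lymphoid tissue organization were upregulated at 11 of 12, with a median log2FC of 4.95 (4.46 with floored genes). Cxcl13 (chromosome 5, 95956939 to 95961068), the chemokine that draws B cells into follicles, measured 19.4, 42.4 and 28.5 CPM in NOR and 2.33, 1.83 and 4.71 CPM in BALB/c. Both groups were expressed and did not overlap (log2FC 3.32, SE 0.37, adjusted p = 6.3e-07). Ltb, a lymphotoxin subunit that maintains lymphoid stroma, had a log2FC of 5.02 (SE 0.46), whereas its receptor gene Ltbr measured 16.6, 16.2 and 20.3 CPM in NOR and 21.8, 19.2 and 21.7 CPM in BALB/c and was no DEG (log2FC -0.26). Glycam1, a mucin-like ligand of L-selectin made by high endothelial venules, measured 5.45, 12.7 and 6.27 CPM in NOR and was detected only in replicate 3 of BALB/c, at 0.384 CPM; it was a DEG with edgeR but not with DESeq2. Tnfsf11, which encodes RANKL, had no count in BALB/c and was at least 6.56-fold higher in NOR, measured against a floor of 3 counts per library. Ccl21a was not counted in any library and Madcam1 only in NOR 2, and both belong to venules and stroma of lymphoid organs. Reads that map to several related genes were not counted, so the missing counts of Ccl21a do not show its absence.

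Macrophage and monocyte genes had smaller differences than lymphocyte genes, and 6 of them were no DEGs. Upregulated were 12 of 18 (14 without BALB/c 3, 11 without BALB/c 1), with a median log2FC of 1.63. Lyz2, the lysozyme of macrophages and the most abundant of them per kilobase, measured 230, 370 and 251 CPM in NOR and 50.0, 46.4 and 75.1 CPM in BALB/c. The lowest NOR library was about 3-fold above the highest BALB/c library (log2FC 2.31, SE 0.23, adjusted p = 1.79e-07). Csf1r, the receptor for macrophage colony-stimulating factor, had a smaller difference (log2FC 1.15, SE 0.17), and Emr1, which encodes the macrophage marker F4/80, a log2FC of 1.88 (SE 0.28). Marco, a scavenger receptor of particular macrophage subsets, measured 1.52, 2.04 and 2.66 CPM in NOR and had no count in BALB/c, at least 9.07-fold. Mrc1, a marker of resident macrophages, measured 29.3, 31.1 and 27.3 CPM in NOR and 23.7, 22.2 and 25.9 CPM in BALB/c and was no DEG (adjusted p = 0.0965). The same held for Cd163, Mertk, Itgam, Cd14 and Ly6c2.

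Dendritic cell genes were upregulated at 9 of 11 (7 without NOR 2, 10 without NOR 1 or NOR 3), with a median log2FC of 2.87 (2.75 with floored genes). Itgax, the integrin CD11c, measured 14.6, 30.6 and 21.8 CPM in NOR and 2.19, 2.36 and 3.89 CPM in BALB/c. Every NOR library exceeded every BALB/c library (log2FC 2.98, SE 0.31, adjusted p = 3.18e-07). Flt3, the growth factor receptor of dendritic cell precursors, and Fscn1, which mature dendritic cells need to migrate, had log2FC of 3.78 (SE 0.41) and 3.57 (SE 0.37). Siglech, a marker of plasmacytoid dendritic cells, was no DEG (log2FC 0.89). Of 5 mast cell genes none was a DEG with edgeR or DESeq2 (1 was upregulated without NOR 1 or BALB/c 3), and 1 higher and 2 lower ones had an unadjusted p under 0.05 (all genes, 28.0 and 28.6%). Cpa3, the mast cell carboxypeptidase, measured 2.97, 2.98 and 2.76 CPM in NOR and 5.32, 5.33 and 5.0 CPM in BALB/c, a difference below 2-fold that the groups showed without overlap (log2FC -0.84, adjusted p = 0.0025). Neutrophil genes were mostly too sparse to be tested: Csf3r was upregulated (log2FC 1.33, SE 0.49), but not without NOR 2, NOR 3, BALB/c 1 or BALB/c 2.

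Chemokine ligand genes were upregulated at 17 of 26 and downregulated at 1 (3 without BALB/c 1), with a median log2FC of 2.00 (1.81 with floored genes). The largest difference was at Cxcl9 (chromosome 5, 92321331 to 92328079), an interferon-induced attractant of activated T cells, with 15.3, 45.1 and 29.0 CPM in NOR and 0.143, 0.0761 and 0.336 CPM in BALB/c. The BALB/c libraries held between 1 and 7 counts of it (log2FC 7.18, SE 0.60, adjusted p = 2.44e-08). Ccl8, a monocyte attractant and the most abundant ligand per kilobase, measured 49.1, 74.4 and 60.7 CPM in NOR and 10.3, 9.44 and 19.3 CPM in BALB/c. Here both strains had clear expression, and BALB/c 3 was the highest of its group (log2FC 2.23, SE 0.31, adjusted p = 8.53e-06). Ccl20, the ligand of CCR6, had a log2FC of 5.03 (SE 0.48) and Cxcl12, which stromal cells make, 1.05 (SE 0.10). Ccl28, a mucosal chemokine that glandular epithelium makes, measured 191, 126 and 181 CPM in NOR and 299, 293 and 266 CPM in BALB/c. Its groups did not overlap, but the difference was below 2-fold (log2FC -0.79, SE 0.16, adjusted p = 0.000529). The downregulated ligand was Ccl24, an eosinophil attractant, with 0.621, 0.235 and 0.425 CPM in NOR and 1.33, 1.75 and 1.15 CPM in BALB/c (log2FC -1.78, SE 0.40, adjusted p = 0.00114).

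On the receptor side, 13 of 17 genes were upregulated, with a median log2FC of 2.75. Cxcr5, the receptor for CXCL13 on B cells and follicular helper T cells, measured 9.25, 26.4 and 17.4 CPM in NOR and 0.143, 0.228 and 0.673 CPM in BALB/c. As at Cd79b, BALB/c 3 was above the other BALB/c libraries (Cxcr5 log2FC 5.60, SE 0.46, adjusted p = 1.72e-08). Cxcr3, the receptor for CXCL9, had a log2FC of 5.40 (SE 0.50), Ccr6 one of 5.55 (SE 0.49) and Ccr7, which guides cells into lymphoid tissue, one of 4.28 (SE 0.43). Ccr9, Ccr10, Cxcr7 and Ccrl1 were no DEGs, with log2FC between -0.34 and 0.29.

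Interleukin and interleukin receptor genes were upregulated at 16 of 28 and downregulated at 1, with a median log2FC of 1.28. Adjusted over the list alone, the counts were 16 and 2. Upregulated were 12 without NOR 2 and 19 without BALB/c 3. Il2rg, the common γ chain of many cytokine receptors and the most abundant per kilobase, measured 25.1, 56.4 and 37.9 CPM in NOR and 1.81, 1.68 and 2.79 CPM in BALB/c. The strains were separated more than 8-fold even between the nearest libraries (log2FC 4.23, SE 0.33, adjusted p = 1.17e-08). Il21r had the largest log2FC, 5.97 (SE 0.42), and Il4ra, the interleukin-4 receptor chain, reached 3.33 (SE 0.25). Il1b, which encodes a cytokine of activated myeloid cells, measured 2.42, 3.96 and 4.04 CPM in NOR and 1.81, 2.36 and 3.51 CPM in BALB/c; these ranges overlap (adjusted p = 0.251). Il1rl1, the receptor for interleukin-33, was the downregulated gene, at 0.966, 0.784 and 0.425 CPM in NOR and 1.33, 2.97 and 1.39 CPM in BALB/c (log2FC -1.27, SE 0.38, adjusted p = 0.00838), but not without BALB/c 2.

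Type I interferon response genes were upregulated at 21 of 25, with a median log2FC of 1.6. Their sum was 326, 523 and 407 CPM in NOR and 166, 138 and 222 CPM in BALB/c. At 8 weeks the NOR sum averaged 393 CPM, within the range of the NOR libraries of 16 weeks, and no gene of this list passed the test of a shift from 8 to 16 weeks in either direction. Not passing does not show a lack of change. No T cell gene passed either, though their NOR sum averaged 31.8 CPM at 8 weeks and 178 CPM at 16 weeks. Xaf1 (chromosome 11, 72301629 to 72313733), which promotes cell death, measured 19.1, 33.3 and 24.7 CPM in NOR and 1.43, 1.45 and 2.35 CPM in BALB/c. It had the largest difference of the list (log2FC 3.87, SE 0.23, adjusted p = 2.77e-10). Oas3, which makes the activator of the antiviral nuclease RNase L, measured 3.11, 7.45 and 5.42 CPM in NOR and 0.285, 0.00 and 1.54 CPM in BALB/c, with BALB/c 3 nearest to NOR (log2FC 3.01, SE 0.58, adjusted p = 0.000259). Isg15, a ubiquitin-like modifier, measured 2.49, 5.41 and 5.0 CPM in NOR and 0.95, 0.761 and 2.40 CPM in BALB/c, so that BALB/c 3 nearly reached NOR 1 (log2FC 1.6, SE 0.39, adjusted p = 0.00221). Stat2, a transcription factor of this response, measured 62.3, 87.8 and 76.1 CPM in NOR and 46.0, 35.3 and 48.9 CPM in BALB/c, without overlap but below 2-fold (log2FC 0.79, adjusted p = 9.48e-05). Ifih1, which encodes the RNA sensor MDA5, was no DEG either (log2FC -0.42, adjusted p = 0.0167), nor were Ifi44 and Ddx58. Mx2 and Usp18 were no DEGs without NOR 2, BALB/c 1 or BALB/c 2, and Mx2 was none with the 16-week libraries alone either. Rsad2 was no DEG without BALB/c 1 or 2, and the list had 18 upregulated genes in each of these 2 fits.

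Interferon-γ response genes were upregulated without exception, 23 of 23 tested, with a median log2FC of 3.14. The sum was 532, 1125 and 770 CPM in NOR and 98.1, 88.7 and 151 CPM in BALB/c, against means of 353 CPM for NOR and 89.1 CPM for BALB/c at 8 weeks. Psmb8, a catalytic subunit of the immunoproteasome and the most abundant gene of the list per kilobase, measured 43.2, 85.8 and 59.1 CPM in NOR and 3.42, 2.66 and 8.50 CPM in BALB/c, with the lowest NOR library several times the highest BALB/c library (log2FC 3.65, SE 0.35, adjusted p = 1.25e-07). Igtp and Tgtp1, GTPases that act against intracellular pathogens, had log2FC of 4.01 (SE 0.35) and 4.63 (SE 0.52). The smallest difference was at Irf8, a factor of myeloid and B cells (log2FC 1.45, SE 0.15). Ido1 and Nos2 were too sparse to be tested.

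Promoters of these responses are shown because 2 sequence elements are known in them: the interferon-stimulated response element (ISRE), searched as TTTC, any 2 bases, TTTC, and the γ-activated sequence (GAS), searched as TTCNNNGAA, both on either strand. RefSeq promoter sequences (GRCm38.p6, 250 bases before to 50 after the start) were at hand for 18 genes of each list. The ISRE letters were found in 10 of 18 type I genes (55.6%) and 10 of 18 interferon-γ genes (55.6%), against 3.99% of the promoters of 27025 genes. GAS letters were found in 9 of 18 interferon-γ genes (50%) and 3 of 18 type I genes (16.7%), against 9.55% of all. Such a match describes letters and does not show that a factor binds. The first run is from Oas3 (chr5:120777685-120777774, minus strand), with the ISRE in capitals 65 to 75 bases before the start. The next is from Ifit3 (chr19:34583333-34583422, plus strand, log2FC 2.92), with the ISRE in capitals 146 to 156 bases before the start. Another ISRE match in the Ifit3 run, 112 to 122 bases before the start, is left in small letters. Tgtp1 (chr11:48992274-48992363, minus strand) and Igtp (chr11:58199482-58199555, plus strand) have an ISRE in capitals that begins 2 bases after a GAS. Gbp2 (chr3:142620564-142620653, plus strand), a guanylate-binding protein gene with a log2FC of 3.57, has its ISRE 49 to 59 bases before the start. The last run is the GAS of Irf1 (chr11:53769884-53769972, plus strand), 81 to 90 bases before the start of this transcription factor gene with a log2FC of 1.76.
Oas3: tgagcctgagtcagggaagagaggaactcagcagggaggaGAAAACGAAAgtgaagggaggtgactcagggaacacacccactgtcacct
Ifit3: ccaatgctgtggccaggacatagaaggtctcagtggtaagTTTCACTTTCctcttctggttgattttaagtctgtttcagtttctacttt
Tgtp1: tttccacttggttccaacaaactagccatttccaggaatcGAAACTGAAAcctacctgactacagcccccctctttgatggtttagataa
Igtp: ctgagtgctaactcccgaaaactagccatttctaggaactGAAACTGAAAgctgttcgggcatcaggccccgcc
Gbp2: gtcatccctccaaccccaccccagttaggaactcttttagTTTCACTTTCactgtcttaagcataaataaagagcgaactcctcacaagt
Irf1: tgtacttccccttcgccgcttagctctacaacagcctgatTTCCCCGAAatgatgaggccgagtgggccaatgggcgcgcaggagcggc

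MHC class II genes, which display antigen to helper T cells, were upregulated at 11 of 12, the exception being H2-Ea-ps, and the median log2FC was 3.78. Cd74 (chromosome 18, 60803849 to 60812652), the invariant chain and the most abundant of them per kilobase, measured 456, 1060 and 754 CPM in NOR and 58.2, 60.5 and 88.4 CPM in BALB/c. NOR 2 held more than 2-fold the level of NOR 1, yet NOR 1 was still several times BALB/c 3 (log2FC 3.45, SE 0.25, adjusted p = 5.71e-09). Ciita, the master regulator of these genes, measured 20.2, 54.6 and 34.0 CPM in NOR and 1.62, 1.45 and 2.74 CPM in BALB/c (log2FC 4.21, SE 0.37, adjusted p = 4.19e-08). H2-Ob, a chain of the peptide-loading modulator of B cells, had a log2FC of 6.0 (SE 0.45), above those of the conventional chains H2-Aa (3.70), H2-Ab1 (3.84) and H2-Eb1 (3.73). H2-Eb2 was nearly silent in BALB/c with 2, 0 and 1 counts and 255-fold higher in NOR (counting interval 86.8 to 1238).

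**Figure D2:**
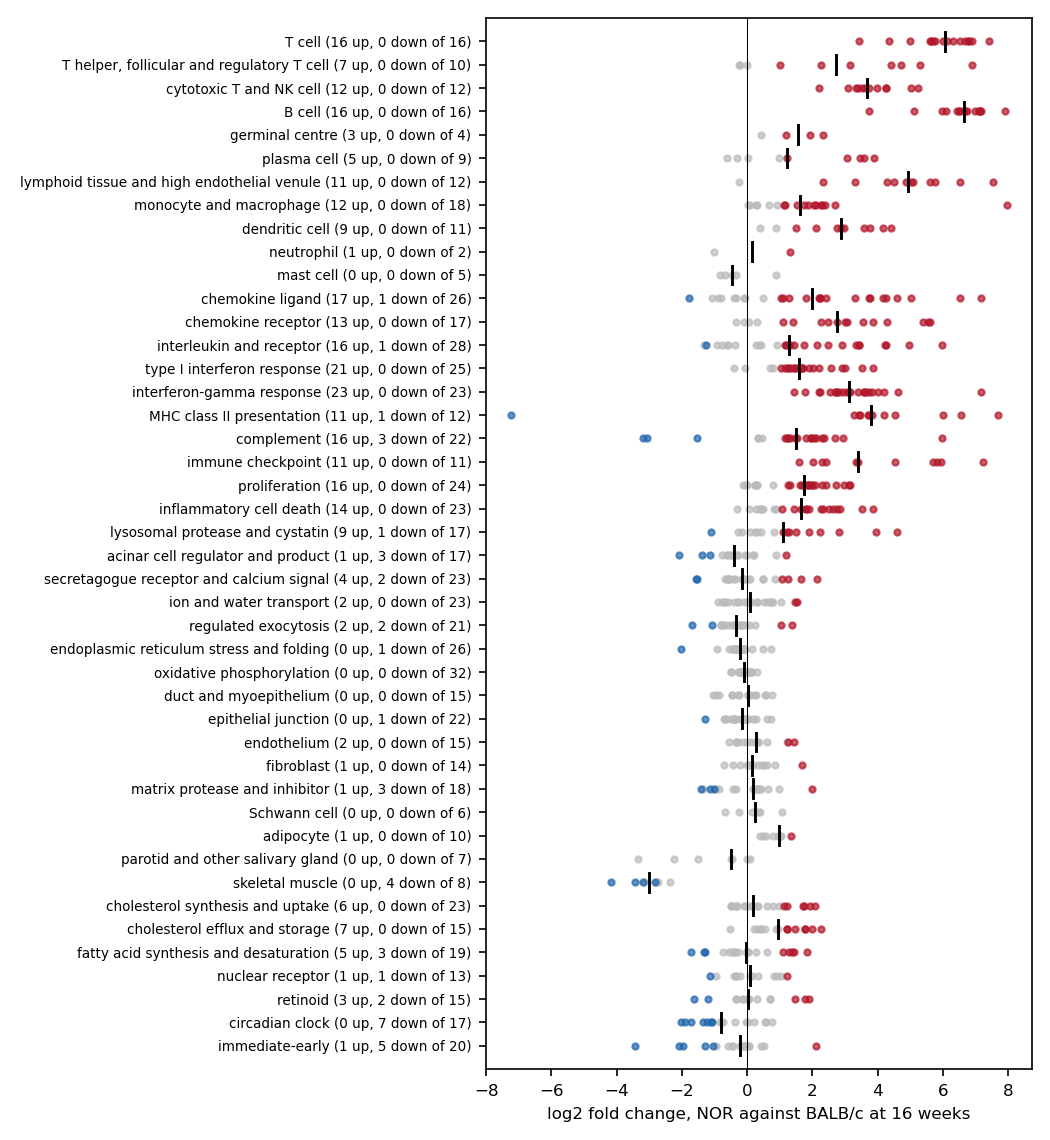
Log2 fold changes (horizontal axis, NOR over BALB/c at 16 weeks) of the tested genes of 44 lists, 1 line per list, with the numbers of upregulated and downregulated genes in brackets; red, upregulated; blue, downregulated; gray, no DEG; black bar, median. Medians range from 6.66 for B cell genes to -2.99 for skeletal muscle genes, and those of acinar, secretagogue, transport, exocytosis and folding genes lie between -0.41 and 0.10, beside a median of all genes of -0.01.

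Complement genes were upregulated at 16 of 22 and downregulated at 3, with a median log2FC of 1.51. C3 (chromosome 17, 57203973 to 57228136), on which all activation routes converge, measured 273, 491 and 379 CPM in NOR and 85.3, 83.4 and 125 CPM in BALB/c. The groups did not overlap (log2FC 1.96, SE 0.27, adjusted p = 6.86e-06). C4b of the classical route had a log2FC of 2.95 (SE 0.25), Cfb of the alternative route 2.36 (SE 0.24), and Serping1, the inhibitor of C1, 1.47 (SE 0.19). Hc, which encodes C5, was downregulated from 0.618, 0.837 and 1.49 CPM in BALB/c to between 1 and 3 counts in each NOR library, a pooled ratio of 9.88 (counting interval 3.99 to 31.6) between BALB/c and NOR. Cfi and Cd46, which inactivate complement on cells and in fluid, were downregulated too, with log2FC of -3.06 (SE 0.60) and -1.53 (SE 0.38). Immune checkpoint genes were upregulated at 11 of 11, with a median log2FC of 3.40. However, Cd80, a costimulatory ligand, was no DEG with DESeq2, with replicate number as a block, or without NOR 2, BALB/c 1 or BALB/c 3. Btla (chromosome 16, 45224337 to 45252895), an inhibitory receptor of B and T cells, measured 18.1, 49.5 and 32.6 CPM in NOR and 0.190, 0.0761 and 0.336 CPM in BALB/c (log2FC 7.22, SE 0.48, adjusted p = 1.82e-09). Cd274, the ligand PD-L1, measured 6.83, 14.9 and 10.6 CPM in NOR and 0.808, 1.45 and 1.06 CPM in BALB/c, and its receptor gene Pdcd1 had a log2FC of 5.94 (SE 0.62) beside 3.34 (SE 0.36) for the ligand.

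Proliferation genes were upregulated at 16 of 24 (12 without NOR 2), with a median log2FC of 1.75, but several of the most abundant were no DEGs. Mcm6, a subunit of the replicative helicase, measured 9.66, 22.1 and 15.3 CPM in NOR and 1.24, 1.90 and 2.84 CPM in BALB/c (log2FC 2.99, SE 0.37, adjusted p = 2.14e-06). Top2a, which untangles replicated DNA, had a log2FC of 1.91 (SE 0.30) and Aurkb, a mitotic kinase, 3.16 (SE 0.41). Mki67, in common use as a proliferation marker, measured 29.96, 44.4 and 37.9 CPM in NOR and 31.7, 37.3 and 27.2 CPM in BALB/c, with overlapping groups (log2FC 0.23, SE 0.26, adjusted p = 0.468). Pcna, the most abundant of the list per kilobase, and Rrm2 and Tyms, which supply DNA precursors, were no DEGs either (log2FC 0.26, -0.01 and -0.13).

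Genes of inflammatory cell death were upregulated at 14 of 23 (11 without NOR 2, 16 without BALB/c 3), with a median log2FC of 1.64. Gsdmd, the pore-forming protein of pyroptosis, measured 10.9, 23.2 and 19.99 CPM in NOR and 2.19, 2.51 and 3.89 CPM in BALB/c (log2FC 2.64, SE 0.29, adjusted p = 5.68e-07). Its activator Casp1 had a log2FC of 2.76 (SE 0.30), and Aim2, a sensor of cytosolic DNA, 3.86 (SE 0.44). Among lysosomal proteases and cystatins 9 of 17 were upregulated and 1 downregulated, with a median log2FC of 1.09. Ctss, the protease that trims the invariant chain in antigen-presenting cells, measured 99.3, 175 and 119 CPM in NOR and 16.3, 13.6 and 25.9 CPM in BALB/c. Its NOR libraries were all above the BALB/c ones (log2FC 2.80, SE 0.24, adjusted p = 3.62e-08), whereas Ctsd, the most abundant protease of the list per kilobase, measured 309, 284 and 296 CPM in NOR and 271, 286 and 282 CPM in BALB/c (log2FC 0.08). Ctsk, a collagen-degrading protease, was downregulated (log2FC -1.11, SE 0.26), but not without NOR 1.

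Regulators and products of acinar cells mostly lay within 2-fold of each other. Of 17 tested, 1 was upregulated and 3 downregulated (all genes, 14.1 and 5.22%), with a median log2FC of -0.41. There were 2 higher and 9 lower ones at an unadjusted p under 0.05 (all genes, 28.0 and 28.6%). The list summed to 24061, 15996 and 16615 CPM in NOR and 27601, 25047 and 23987 CPM in BALB/c. Pip, the prolactin-inducible tear protein and the most abundant per kilobase, measured 13706, 8618 and 7920 CPM in NOR and 14945, 13022 and 12269 CPM in BALB/c. NOR 1 lay inside the BALB/c range (log2FC -0.41, SE 0.20, adjusted p = 0.0954). Car6 (chromosome 4, 150187016 to 150201135), the secreted carbonic anhydrase, measured 395, 488 and 350 CPM in NOR and 1733, 1929 and 1606 CPM in BALB/c. Every BALB/c library held more than 3-fold the level of every NOR library (log2FC -2.09, SE 0.18, adjusted p = 3.14e-08). Elf5 (chromosome 2, 103412098 to 103450988), a transcription factor of secretory epithelium, measured 36.9, 26.8 and 26.3 CPM in NOR and 84.0, 76.7 and 74.5 CPM in BALB/c, likewise without overlap (log2FC -1.39, SE 0.12, adjusted p = 4.59e-08). Bhlha15, which encodes the secretory regulator MIST1, measured 842, 505 and 686 CPM in NOR and 1244, 1148 and 1087 CPM in BALB/c, lower in all NOR libraries but by less than 2-fold (log2FC -0.77, SE 0.16, adjusted p = 0.000379). Ltf, which encodes the iron-binding tear protein lactoferrin, measured 1615, 1416 and 1640 CPM in NOR and 909, 761 and 864 CPM in BALB/c, also below 2-fold (log2FC 0.88, SE 0.13, adjusted p = 1.16e-05). Aqp5, the apical water channel, was at 109, 78.1 and 94.8 CPM in NOR and 99.3, 94.0 and 89.2 CPM in BALB/c (log2FC 0.00). Prlr and the upregulated Lyz1 were no DEGs without NOR 2.

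The 20 most abundant genes of the gland are mainly androgen-binding proteins, lipocalins and related secreted proteins of families whose members share sequence, so reads that map to several of them were not counted. Abpe took 9.30, 8.37 and 9.35% of the reads in NOR and 5.97, 6.20 and 5.71% in BALB/c; on the CPM scale the difference was no DEG (log2FC 0.36, adjusted p = 0.172). Of the 20, the DEGs were Gm9041 and Gm12888, both downregulated. Gm9041 took 0.765, 0.617 and 0.829% of the reads in NOR and 1.48, 1.67 and 1.6% in BALB/c (log2FC -1.33, SE 0.25, adjusted p = 0.000179).

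Receptors and calcium signaling genes that trigger secretion were upregulated at 4 of 23 and downregulated at 2 (all genes, 14.1 and 5.22%). At an unadjusted p under 0.05, 6 were higher and 10 lower (all genes, 28.0 and 28.6%), with a median log2FC of -0.15. Vipr1 (chromosome 9, 121642716 to 121672954), a receptor for the parasympathetic peptide VIP, measured 19.7, 14.9 and 18.9 CPM in NOR and 55.1, 51.5 and 50.7 CPM in BALB/c. The strains did not overlap (log2FC -1.57, SE 0.12, adjusted p = 5.51e-09). Prkca, a protein kinase C, was downregulated as well (log2FC -1.52, SE 0.14). Chrm3, the main muscarinic receptor of acinar cells, measured 14.2, 9.65 and 11.2 CPM in NOR and 20.3, 16.8 and 18.5 CPM in BALB/c, a difference without overlap but below 2-fold (log2FC -0.69, SE 0.12, adjusted p = 0.000144). Upregulated genes included Plcb1 (log2FC 1.66) and the calcium channels Itpr1 (1.07), no DEG without NOR 2, and Itpr2 (1.26). Plcb1, a phospholipase of calcium signaling, measured 9.18, 4.12 and 9.04 CPM in NOR and 2.23, 1.83 and 2.64 CPM in BALB/c, and unlike the immune genes it was lowest in NOR 2.

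Ion and water transport genes included 2 upregulated and no downregulated ones among 23 (all genes, 14.1 and 5.22%), with 6 higher and 6 lower at an unadjusted p under 0.05 (all genes, 28.0 and 28.6%) and a median log2FC of 0.10. These were Car2, a cytosolic carbonic anhydrase (log2FC 1.53), and Aqp4, a water channel (log2FC 1.47), both at under 4 CPM in every library and neither a DEG without BALB/c 1. Car2 was none without NOR 2 or NOR 3 either, and without BALB/c 3 the list had 4 upregulated genes. At Car2 the strains overlapped, NOR 1 (1.035 CPM) lying below BALB/c 2 (1.37 CPM). Kcnma1, a calcium-activated potassium channel, measured 30.7, 22.3 and 26.9 CPM in NOR and 45.8, 40.5 and 42.6 CPM in BALB/c (log2FC -0.70, SE 0.11, adjusted p = 2.61e-05). Genes of regulated exocytosis were upregulated at 2 of 21 and downregulated at 2 (all genes, 14.1 and 5.22%), with a median log2FC of -0.33. Among them 3 higher and 13 lower ones had an unadjusted p under 0.05 (all genes, 28.0 and 28.6%). Without NOR 2 the upregulated genes Stx4a and Sytl2 were no DEGs, and Stx4a was none without BALB/c 1 or BALB/c 2 either. Rab26, a GTPase of secretory granule maturation, measured 2.55, 2.20 and 2.76 CPM in NOR and 7.6, 8.53 and 7.93 CPM in BALB/c, with tight groups far apart (log2FC -1.70, SE 0.17, adjusted p = 1.31e-07). At 8 weeks its means were 7.63 CPM for NOR and 7.17 CPM for BALB/c, and the change of the strain difference passed the test. Rab27b, which docks granules, was downregulated (log2FC -1.08, SE 0.12), though not without NOR 2. Rab3d, the granule GTPase of acinar cells, measured 218, 145 and 181 CPM in NOR and 300, 304 and 282 CPM in BALB/c, again below 2-fold (log2FC -0.71, SE 0.11, adjusted p = 4.64e-05).

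Endoplasmic reticulum stress and folding genes held 1 downregulated and no upregulated member among 26 (all genes, 5.22 and 14.1%). Their median log2FC was -0.21. DESeq2 gave the same counts, 2 were downregulated without NOR 1, and at an unadjusted p under 0.05 there were 1 higher and 13 lower (all genes, 28.0 and 28.6%). Chac1, an enzyme that degrades glutathione and is induced by ATF4, measured 6.83, 2.47 and 3.51 CPM in NOR and 17.8, 23.5 and 10.4 CPM in BALB/c. Its replicates varied more than 2-fold within each strain but did not overlap (log2FC -2.04, SE 0.41, adjusted p = 0.000369). Ern1, the stress sensor IRE1α, measured 55.6, 36.2 and 48.8 CPM in NOR and 91.1, 91.6 and 80.9 CPM in BALB/c, short of 2-fold (log2FC -0.91, SE 0.12, adjusted p = 6.86e-06), and the chaperone Calr, the most abundant of the list per kilobase, had a log2FC of -0.21 (adjusted p = 0.239). Of 32 oxidative phosphorylation genes none was a DEG with edgeR or DESeq2, while 1 higher and 9 lower ones had an unadjusted p under 0.05 (all genes, 28.0 and 28.6%). Their log2FC ran from -0.49 at Sdhc to 0.31 at Cox5a, around a median of -0.08. Atp5b, the catalytic subunit of ATP synthase, measured 411, 333 and 359 CPM in NOR and 430, 436 and 423 CPM in BALB/c.

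Duct and myoepithelial genes gave no DEG among 15 with edgeR or DESeq2 (1 was downregulated without BALB/c 1 or 2), with 4 higher and 5 lower ones at an unadjusted p under 0.05 (all genes, 28.0 and 28.6%) and a median log2FC of 0.02. Mylk, the kinase that starts smooth muscle contraction, measured 34.0, 39.7 and 39.2 CPM in NOR and 22.7, 21.3 and 22.3 CPM in BALB/c, higher in every NOR library by less than 2-fold (log2FC 0.77, SE 0.10, adjusted p = 5.77e-06). Krt18, a keratin of simple epithelium and the most abundant of the list per kilobase, had a log2FC of -0.29. Among 22 junction genes 1 was downregulated and none upregulated (1 without BALB/c 3), against 5.22 and 14.1% of all genes. An unadjusted p under 0.05 was reached by 1 higher and 9 lower ones (all genes, 28.0 and 28.6%), and the median log2FC was -0.15. Cldn7, a claudin of epithelial membranes, measured 5.32, 4.59 and 4.47 CPM in NOR and 11.6, 10.3 and 13.1 CPM in BALB/c (log2FC -1.29, SE 0.15, adjusted p = 1.32e-06). Cdh1, the main adhesion protein of epithelial cells, measured 97.5, 80.9 and 90.9 CPM in NOR and 90.1, 76.5 and 101 CPM in BALB/c (log2FC 0.00).

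**Figure D3:**
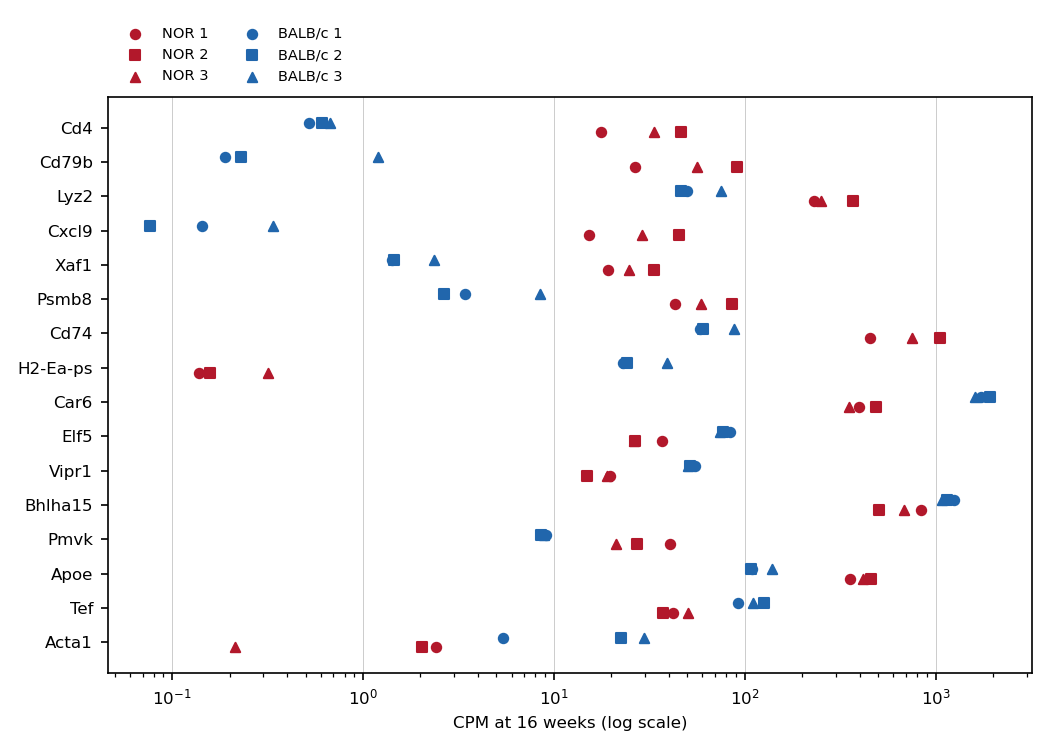
Level of 16 genes in each of the 6 LG libraries of 16 weeks, in CPM on a logarithmic horizontal axis; NOR in red, BALB/c in blue, with circles, squares and triangles for replicates 1, 2 and 3. Cd4 stands at 17.6 to 46.2 CPM in NOR and 0.523 to 0.673 CPM in BALB/c, H2-Ea-ps has the strains in the opposite order, and Bhlha15 shows groups that are close together without overlap.

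Vessel genes gave 2 upregulated among 15, a share near the 14.1% of all genes, with 3 higher and 2 lower at an unadjusted p under 0.05 (all genes, 28.0 and 28.6%) and a median log2FC of 0.26. Pecam1, which encodes the adhesion protein CD31 of endothelium and also of leukocytes, measured 20.4, 39.0 and 29.1 CPM in NOR and 10.5, 9.06 and 13.1 CPM in BALB/c (log2FC 1.44, SE 0.19, adjusted p = 6.03e-06), while Cdh5, restricted to endothelium, measured 5.25, 6.0 and 5.0 CPM in NOR and 4.61, 3.96 and 5.04 CPM in BALB/c. Lyve1 of lymphatic vessels had a log2FC of 1.25 (SE 0.38), but was no DEG without NOR 2. Of 14 fibroblast genes 1 was upregulated (2 without NOR 1 or BALB/c 3; all genes, 14.1%), Thy1, which T cells express too (log2FC 1.68, SE 0.22), and the median was 0.14. Dcn, a matrix proteoglycan, measured 142, 158 and 155 CPM in NOR and 143, 156 and 140 CPM in BALB/c (log2FC 0.05). Matrix proteases and inhibitors had 1 upregulated and 3 downregulated among 18 (all genes, 14.1 and 5.22%), with a median log2FC of 0.19, and only Adamts1, a secreted metalloprotease, was a DEG with DESeq2 and with any library left out as well (log2FC -1.15, SE 0.30, adjusted p = 0.00358). Schwann cell genes gave no DEG among 6 in the edgeR fit of the report. With DESeq2 1 was upregulated, as also with other scalings or filters in edgeR and without NOR 2, NOR 3 or BALB/c 3. An unadjusted p under 0.05 was reached by 2 higher and 1 lower ones (all genes, 28.0 and 28.6%). Of 10 adipocyte genes 1 was upregulated (all genes, 14.1%), around a median of 0.97. It was Plin1, a lipid droplet protein (log2FC 1.35, SE 0.46), which was no DEG without NOR 2 or BALB/c 3. Adjusted over the list alone, none was upregulated. With the 16-week libraries alone 4 adipocyte genes were upregulated.

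Skeletal muscle genes were lower in NOR, with 4 of 8 downregulated (all genes, 5.22%) and a median log2FC of -2.99. Adjusted over the list alone, 7 were downregulated. They summed to 21.3, 13.7 and 3.40 CPM in NOR and 32.5, 132 and 192 CPM in BALB/c, so that BALB/c 1 lay nearer to NOR 1 than to the other BALB/c libraries. Myh4, a fast myosin with the highest CPM of the 8, measured 8.15, 4.98 and 0.638 CPM in NOR and 11.5, 43.5 and 77.3 CPM in BALB/c and was no DEG in the fit of all 18 libraries (adjusted p = 0.0599), but was with the 16-week libraries alone. Acta1 (log2FC -3.44, SE 1.4), the actin of muscle fibers, was a DEG in the edgeR fit of all 18 libraries, but neither with DESeq2 nor when any NOR library or BALB/c 2 or 3 was left out. The number downregulated depended on the fit: 3 with DESeq2, 1 without NOR 2, and 2 without NOR 3, BALB/c 2 or BALB/c 3. All 8, Myh4 among them, were downregulated with the 16-week libraries alone, without the 3-week libraries, or with replicate number as a block. No gene of the 8 was without counts in these libraries. Of the 7 parotid genes none was a DEG with edgeR or DESeq2 and none had an unadjusted p under 0.05 (all genes, 28.0 and 28.6%). Bpifa2, the most abundant of them, measured 20.9, 3255 and 2.98 CPM in NOR and 5.04, 4343 and 214 CPM in BALB/c, and the salivary proline-rich protein gene Prh1 had reads in BALB/c 2 alone. The part of muscle and parotid RNA in the other results was not tested.

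Lipid genes went in several directions. In cholesterol synthesis and uptake 6 of 23 were upregulated and none downregulated (all genes, 14.1 and 5.22%), with a median log2FC of 0.19; 6 lower ones had an unadjusted p under 0.05 (all genes, 28.6%), and DESeq2 gave the same counts. Fdft1, the first enzyme committed to sterols, measured 2.35, 3.33 and 4.15 CPM in NOR and 0.713, 0.913 and 0.913 CPM in BALB/c (log2FC 1.93, SE 0.36, adjusted p = 0.0002). Hmgcs1, an early enzyme of the pathway and the most abundant per kilobase, measured 68.1, 45.5 and 56.3 CPM in NOR and 79.0, 81.4 and 76.9 CPM in BALB/c (log2FC -0.49). Cholesterol efflux and storage had 7 of 15 upregulated, with a median log2FC of 0.93. Apoe (chromosome 7, 19696244 to 19699166), the lipoprotein of macrophages, measured 358, 461 and 415 CPM in NOR and 109, 108 and 140 CPM in BALB/c. The NOR libraries lay closer together than for lymphocyte genes (log2FC 1.79, SE 0.15, adjusted p = 3.1e-08). Abcg1, which exports cholesterol, had a log2FC of 2.27 (SE 0.25), whereas Abca1, which acts beside it, measured 69.2, 80.1 and 76.0 CPM in NOR and 105, 108 and 112 CPM in BALB/c (log2FC -0.53, SE 0.08, adjusted p = 2.96e-05).

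In fatty acid synthesis and desaturation 5 of 19 were upregulated and 3 downregulated (all genes, 14.1 and 5.22%), with a median log2FC of -0.04. The desaturases Fads1, Fads2 and Fads3 and the elongases Elovl5 and Elovl6 formed the upregulated side, with log2FC from 1.10 to 1.85. Without BALB/c 1 the count was 3, as Elovl6 and Fads3 were no DEGs then, and Fads3 was none without NOR 2, NOR 3 or BALB/c 2 either. Acacb, the mitochondrial acetyl-CoA carboxylase, measured 10.2, 8.79 and 7.23 CPM in NOR and 29.1, 26.3 and 31.1 CPM in BALB/c (log2FC -1.71, SE 0.15, adjusted p = 4.59e-08), and Me1, which supplies NADPH, measured 24.9, 16.4 and 22.1 CPM in NOR and 53.2, 51.9 and 52.6 CPM in BALB/c (log2FC -1.33, SE 0.11, adjusted p = 2.44e-08). Both were downregulated without overlap between strains. Scd1, the most abundant of the list per kilobase, had a log2FC of -0.04. Of 13 nuclear receptors 1 was upregulated and 1 downregulated (all genes, 14.1 and 5.22%), with a median of 0.08. Ppard, a fatty acid sensor, was the upregulated one (log2FC 1.24), but no DEG without NOR 2. Among 15 retinoid genes 3 were upregulated and 2 downregulated (all genes, 14.1 and 5.22%), with 5 higher and 4 lower at an unadjusted p under 0.05 (all genes, 28.0 and 28.6%) and a median of 0.04. Upregulated was 1 without BALB/c 1 or 2 and with the 16-week libraries alone, and Rbp4, a retinol carrier, was no DEG with DESeq2. Aldh1a2, which makes retinoic acid, measured 5.52, 4.98 and 6.27 CPM in NOR and 0.998, 1.75 and 1.73 CPM in BALB/c (log2FC 1.91, SE 0.34, adjusted p = 0.000124), while the related Aldh1a3 was downregulated (log2FC -1.20, SE 0.31), as was Lrat, which stores retinol as ester (log2FC -1.62, SE 0.35).

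Circadian clock genes were downregulated at 7 of 17 with edgeR and with DESeq2, and none was upregulated (all genes, 5.22 and 14.1%). Downregulated were 5 without NOR 2 or BALB/c 2, and upregulated were 2 without BALB/c 1. At an unadjusted p under 0.05, 2 were higher and 10 lower (all genes, 28.0 and 28.6%), and the median log2FC was -0.79. Tef (chromosome 15, 81802673 to 81826863), a clock-controlled transcription factor, measured 42.3, 37.2 and 50.2 CPM in NOR and 91.8, 126 and 111 CPM in BALB/c. NOR libraries were all below BALB/c libraries (log2FC -1.35, SE 0.12, adjusted p = 3.57e-08). Per3, a period gene, measured 5.38, 6.59 and 10.7 CPM in NOR and 19.1, 38.6 and 31.2 CPM in BALB/c, with BALB/c 1 the lowest of its group (log2FC -2.01, SE 0.22, adjusted p = 5.16e-07). Arntl, the clock activator BMAL1, measured 15.8, 14 and 12.3 CPM in NOR and 15.1, 4.42 and 8.22 CPM in BALB/c, where BALB/c 1 overlaps NOR (adjusted p = 0.0729). The hour of collection was not analysed here. Immediate-early genes, which respond within minutes to stimuli, were downregulated at 5 of 20 and upregulated at 1 (all genes, 5.22 and 14.1%). Their median log2FC was -0.21, with 3 higher and 6 lower at an unadjusted p under 0.05 (all genes, 28.0 and 28.6%). Egr1, a zinc finger factor, measured 2.55, 5.84 and 5.53 CPM in NOR and 32.8, 16.8 and 10.1 CPM in BALB/c, with a wide BALB/c spread (log2FC -2.09, SE 0.40, adjusted p = 0.000242). Klf2, a factor of quiescent lymphocytes and endothelium, was the upregulated one (log2FC 2.11, SE 0.29).

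Genes present in 1 strain and at most 3 counts per library in the other numbered 26 for NOR and 6 for BALB/c, when at least 30 counts per library were asked for in the expressing strain. With at most 1 and at least 100 counts the numbers were 3 and 1. Of the 26, 19 had at most 9 counts in the 3 NOR libraries of 3 weeks together, and none was as low in those of 8 weeks. Members of the lists made up 12 of the 26, among them the T and B cell genes Cd3d, Cd8a, Foxp3 and Pax5. Hapln4 (chromosome 8, 70083529 to 70090862), a link protein of extracellular matrix, had 258, 335 and 150 counts in NOR and 1, 0 and 0 in BALB/c, a ratio of 827 (counting interval 148 to 32723). It was already at 16.1 CPM in NOR at 3 weeks. Trim12a (chromosome 7, 104299897 to 104315495), of the TRIM5 family, had 106, 477 and 94 counts in NOR and none in BALB/c, at least 52.6-fold. Klra17 (chromosome 6, 129831154 to 129876672), of the Ly49 receptor family, likewise had no BALB/c count, with 3.18, 7.22 and 5.95 CPM in NOR. Reads that map to several family members were not counted, and both strains were aligned to the mm10 reference, so strain differences in sequence can alter such levels. Htr5b (chromosome 1, 121509773 to 121528465), a serotonin receptor gene, had 313, 187 and 274 counts in BALB/c and 1, 0 and 0 in NOR, a ratio of 695 (counting interval 124 to 27489), and was at 19.1 CPM in BALB/c at 3 weeks. Masp2, a protease of the lectin route of complement, measured 3.56, 3.43 and 2.35 CPM in BALB/c and had 1, 0 and 0 counts in NOR, a ratio of 152 (26.9 to 6029).

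The smallest p values among upregulated genes included Ceacam2 (chromosome 7, 25516042 to 25540004), an adhesion protein, with 84.9, 57.2 and 71.6 CPM in NOR and 0.285, 0.381 and 0.192 CPM in BALB/c (log2FC 7.98, SE 0.27, adjusted p = 1.14e-13). Unlike lymphocyte genes it was highest in NOR 1. Its NOR mean was already 64.0 CPM at 3 weeks and 85.8 CPM at 8 weeks. Slc37a1, a glucose-phosphate transporter, measured 165, 116 and 145 CPM in NOR and 16.7, 15.8 and 16.3 CPM in BALB/c (log2FC 3.12, SE 0.14, adjusted p = 3.38e-12), and its neighbor on chromosome 17, Rsph1, had a log2FC of 5.25 (SE 0.27). Among downregulated genes Asrgl1, an asparaginase, measured 10.6, 11.4 and 12.4 CPM in NOR and 35.4, 34.2 and 37.2 CPM in BALB/c (log2FC -1.64, SE 0.08, adjusted p = 2.01e-11). Tmem181c-ps, a pseudogene on chromosome 17, measured 0.138, 0.275 and 0.106 CPM in NOR and 28.1, 26.2 and 27.0 CPM in BALB/c (log2FC -7.02, SE 0.24). Arhgap18, which inactivates small GTPases, measured 0.690, 1.18 and 0.744 CPM in NOR and 14.3, 12.6 and 14.1 CPM in BALB/c (log2FC -3.87, SE 0.19, adjusted p = 2.69e-11).

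By difference in CPM the upregulated side was led by Lcn11 (chromosome 2, 25777017 to 25780279), a lipocalin, with 7170, 4336 and 3930 CPM in NOR and 2018, 1655 and 1548 CPM in BALB/c. NOR 1 was highest here (log2FC 1.56, SE 0.21, adjusted p = 7.35e-06). Dnase1, a secreted nuclease, measured 2752, 1769 and 2063 CPM in NOR and 197, 426 and 169 CPM in BALB/c (log2FC 3.06, SE 0.28, adjusted p = 7.28e-08). At 3 weeks both strains held more of it, with means of 9046 CPM for NOR and 4745 CPM for BALB/c. On the downregulated side, Gm20516 measured 398, 97.8 and 450 CPM in NOR and 2737, 3798 and 2918 CPM in BALB/c (log2FC -3.32, SE 0.51, adjusted p = 2.43e-05). Slc27a2, a fatty acid transporter, measured 1993, 1335 and 1692 CPM in NOR and 3570, 3647 and 3194 CPM in BALB/c (log2FC -1.05, SE 0.18), but was no DEG without NOR 2. Wfdc12, which encodes a protease inhibitor, measured 538, 699 and 632 CPM in NOR and 1735, 1703 and 1667 CPM in BALB/c (log2FC -1.45, SE 0.26, adjusted p = 0.00011), although at 8 weeks the NOR mean of 1952 CPM was above the BALB/c mean of 1639 CPM.

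The strain difference was compared between ages within 1 fit. From 8 to 16 weeks it shifted toward NOR at 273 genes (2.04% of 13376) and toward BALB/c at 108 (0.807%). The balance depends on the fold-change threshold: without it 460 shifted toward NOR and 611 toward BALB/c, and with edgeR's glmTreat, which tests against a 2-fold change, 0 and 2. The count of 273 rests on NOR 2: it was 99 without that library and 668 without NOR 1, and 139 and 127 without BALB/c 1 and 2. Toward BALB/c it was 48 without NOR 2 and 164 without NOR 1. From 3 to 16 weeks the shifts numbered 1005 (7.51%) and 422 (3.15%), but 1576 and 1749 without the threshold and 260 and 87 with glmTreat. The 422 became 269 without NOR 2. In the libraries of 3 weeks the parotid genes summed to a mean of 45210 CPM (SD 39093) for NOR and 4700 CPM (SD 8138) for BALB/c. Their part in these shifts was not tested. MHC class II genes gave the largest share of shifts toward NOR from 8 weeks among the 44 lists, 6 of 12, among them Cd74, whose 8-week means were 201 CPM for NOR and 56.9 CPM for BALB/c. B cell genes summed to a mean of 32.5 CPM in NOR at 8 weeks and 2.20 CPM in BALB/c, yet 2 of 16, Bank1 and Cd37, passed the test of the shift, and of the T cell genes none. From 3 weeks, 20 of 23 interferon-γ genes and 14 of 25 type I genes passed. Bank1, a scaffold of B cell receptor signaling, measured 11, 36.0 and 24.1 CPM in NOR at 16 weeks against a mean of 1.11 CPM at 8 weeks. Arhgef1, which activates small GTPases in leukocytes, measured 60.5, 109 and 89.7 CPM in NOR and 30.2, 29.7 and 33.4 CPM in BALB/c at 16 weeks, and its 8-week means were 33.2 and 29.4 CPM. Toward BALB/c, Thbs1, the matrix protein thrombospondin-1, measured 10.7, 15.2 and 18 CPM in NOR and 42.0, 61.5 and 28.7 CPM in BALB/c at 16 weeks, against means of 17.4 CPM for NOR and 2.69 CPM for BALB/c at 8 weeks. Clock genes gave 6 shifts of 17 toward BALB/c and 1, Arntl, toward NOR.

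**Figure D4:**
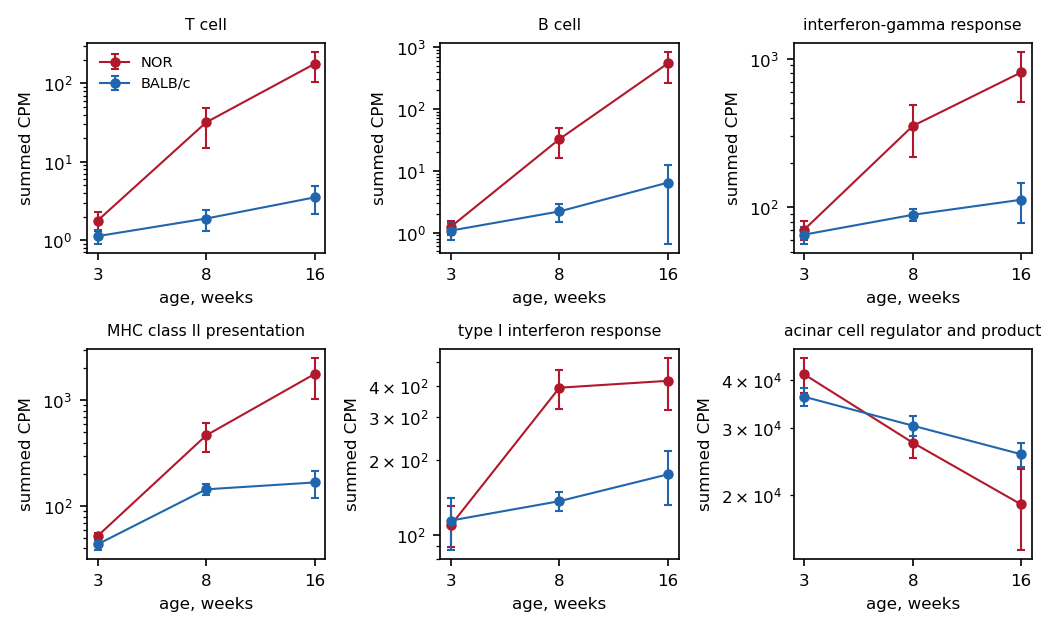
Summed CPM of 6 gene lists (vertical axes, logarithmic) at 3, 8 and 16 weeks (horizontal axes) in NOR (red) and BALB/c (blue) LGs; points are means and bars standard deviations of 3 libraries. The T cell sum of NOR averages 1.78, 31.8 and 178 CPM at the 3 ages and that of BALB/c 1.12, 1.88 and 3.51 CPM, whereas the type I interferon sum of NOR averages 393 CPM at 8 weeks, above its 3-week mean of 109 CPM.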

How the data were processed

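RNA of exorbital LGs was sequenced by the authors as single reads of a stranded mRNA kit, aligned to mm10 and counted per gene with featureCounts 1.6.2. The deposited table of read counts, in which each value is a count of reads assigned to a gene, was used as the authors gave it, with all 18 libraries. Genes were kept by edgeR's filterByExpr (minimum count 10, minimum total 15), and 13376 of 23337 were tested.

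Counts were scaled by TMM and fitted with edgeR 4.0.16 (quasi-likelihood, R 4.3.3), with 1 group per strain and age over all 18 libraries. Tests were two-sided, p values were adjusted by Benjamini and Hochberg over all genes tested, and DEGs had adjusted p values up to 0.05 together with a log2FC of 1 or more in either direction. Shifts of the strain difference between ages were contrasts of the same fit with the same thresholds. CPM use the TMM-scaled library sizes. Counting was unstranded, so reads of genes that overlap on opposite strands are not resolved.

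Ratios for genes with at most 3 counts per library in 1 strain pool the 3 libraries and carry exact 95% binomial intervals. These counting intervals leave out the spread between libraries. The "at least" ratios are against 3 counts per library. Medians "with floored genes" set such genes to that floor. The members and the 44 lists (762 genes, 697 tested) were chosen with earlier results of these data known. Adjusted over the list alone, the counts of DEGs were those over all genes except where another is given. Genes named beyond the lists had the smallest p, the largest CPM difference, the smallest p of the shift from 8 weeks, or at most 3 counts in each library of the other strain.

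Alternatives were DESeq2 1.42.0, DESeq2 size factors, TMM without the 20 most abundant genes, other low-count filters, fits to fewer ages, replicate number as a block, each 16-week library left out, no fold-change threshold and edgeR's glmTreat. The fit was tested on simulated data with known differences.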

Additional observations from a re-analysis of the deposited data

Results flagged for a closer look

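The strain difference differed between ages in a test of its own. From 8 to 16 weeks it shifted toward NOR at 273 genes and toward BALB/c at 108, and from 3 to 16 weeks at 1005 and 422. Without the fold-change threshold the counts were 460 and 611 from 8 weeks and 1576 and 1749 from 3 weeks, and with glmTreat 0 and 2 and 260 and 87. Leaving out single libraries gave 99 to 668 and 48 to 164 from 8 weeks and 738 to 1366 and 269 to 515 from 3 weeks. The genes with the smallest p for a shift toward NOR from 8 weeks were Arntl (change of log2FC 3.19), Arhgef1 (1.30), Csk (1.57), Ezr (1.13) and Dennd1c (1.91). Those toward BALB/c were Thbs1 (-4.27), Cyp2a5 (-2.27), Dsc2 (-1.20), Dhtkd1 (-1.45) and Gyltl1b (-1.19). Cyp2a5, a cytochrome P450, averaged 273 CPM for NOR and 103 CPM for BALB/c at 8 weeks and measured 41.1, 33.5 and 34.4 CPM in NOR and 65.6, 79.1 and 54.7 CPM in BALB/c at 16 weeks. Csk, which restrains Src kinases, averaged 15.4 and 15.2 CPM at 8 weeks and measured 28.9, 58.5 and 45.1 CPM in NOR and 14.1, 14 and 16.1 CPM in BALB/c at 16 weeks.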

How the results depend on the processing

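No DEG of the lists or named became a DEG in the other direction. Medians of some lists changed sign: that of the parotid genes was -0.50, but 3.13 without BALB/c 2, 0.10 without NOR 1 and 0.13 without NOR 3, and that of the 2 neutrophil genes 0.15, but -0.42 without a low-count filter and -0.87 without BALB/c 1. Other lists with a median near 0 did so too. Without a fold-change threshold 3416 genes were higher and 3395 lower in NOR at 16 weeks, and with edgeR's glmTreat, which tests against a 2-fold difference, 1195 and 273. Left out in turn, single 16-week libraries gave 1604 to 2239 higher and 560 to 793 lower genes, lowest without NOR 2 and highest without NOR 1. Shifts from 8 to 16 weeks numbered 460 toward NOR and 611 toward BALB/c without the threshold and 0 and 2 with glmTreat (273 and 108 in the fit of the report, 308 and 86 with DESeq2), and 99 to 668 and 48 to 164 with single libraries left out. More shifts went toward NOR in the fit of the report, but more toward BALB/c without the threshold and with glmTreat. Shifts from 3 weeks numbered 1576 and 1749 without the threshold, 260 and 87 with glmTreat, and 738 to 1366 and 269 to 515 with single libraries left out. The fold-change threshold and the smaller number of libraries are part of these alternatives by construction; why NOR 1 and NOR 2 move the counts was not tested.

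With replicate number as a block the counts were 1869 and 715, and 223 and 111 for the shifts from 8 weeks. No pairing of same-numbered libraries of the strains is clear: their deviations from the strain means correlated across genes at 0.24, 0.08 and 0.01 for replicates 1, 2 and 3 at 16 weeks, 0.04, 0.15 and 0.28 at 8 weeks and 0.31, 0.40 and -0.10 at 3 weeks, and at 16 weeks NOR 2 correlated best with BALB/c 3 (0.31). Genes off in 1 strain fell from 26 to 3 and from 6 to 1 under the stricter counts. Of 363 DEGs of the lists or named, 60 lost the call in a refit by another tool, scaling, filter or choice of libraries, most often without NOR 2; glmTreat was not followed for single genes, and genes that a filter removed were not counted as lost. Skeletal muscle genes lower in NOR numbered 8 with the block, 4 without it. DESeq2 gave 1871 higher and 637 lower genes, and the other scalings and filters are in the same range or follow from the number of genes tested. The labels name no batch, and NOR 3 had the fewest reads, so absence at under 0.319 CPM there is not detectable.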

Other observations

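Some strain differences of 16 weeks arise with age in BALB/c rather than in NOR. Gm5886 (chromosome 6, 133763999 to 133767403), a predicted gene, measured 1384, 1597 and 1268 CPM in BALB/c and 0.0690, 0 and 0.425 CPM in NOR at 16 weeks. In BALB/c its mean was 0.426 CPM at 3 weeks and 1649 CPM at 8 weeks. Lzts1 had at most 3 counts per library in NOR at 16 weeks and was 112-fold higher in BALB/c (counting interval 38.0 to 545), where its mean at 3 weeks was 0.0787 CPM. Reads that map to several related genes were not counted, which bears on Gm5886.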
